A study of Mus musculus with 16 samples.

Results

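The matricellular proteins described here are the products of 10 genes that are linked to fibrosis: Postn, Ccn1, Ccn2, Ccn5, Thbs1, Thbs2, Thbs4, Comp, Tnc and Spp1. They were chosen by name, with earlier results of these data known, and are 10 of the 56953 genes in the deposited count table. All 10 passed the filter on low counts, which left 18662 genes for testing. RNA from the left ventricles of 16 mice of the Bl6J background had been sequenced, 1 library per mouse and 4 mice in each of 4 groups. The WT Ctr and WT Tnpo3 mice were wild type, and the P635L Ctr and P635L Tnpo3 mice were homozygous for P635L, a missense mutation of the cardiac splicing factor RBM20 that is carried in the germ line. Every mouse of every group had received 1e12 viral genomes of an AAV9 vector through the tail vein when 4 weeks old, and hearts were taken 12 weeks later, at 16 weeks. The Tnpo3 groups received the cDNA of Tnpo3, a nuclear import receptor for proteins rich in serine and arginine. The control groups did not receive an empty vector but a construct that expresses Cre recombinase and green fluorescent protein (iCre and eGFP) from the broadly active CAG promoter, so each comparison between the viruses is also a comparison with Cre and GFP. Both sexes were used, without the sex of each mouse being given.

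Matricellular proteins are secreted into the extracellular matrix but mainly signal rather than bear load: they bind integrins, syndecans, CD36, CD47, growth factors and collagen fibrils. In the adult heart most of them are low, and they are known to be induced in fibroblasts and myofibroblasts after injury, pressure overload or in cardiomyopathy. Transforming growth factor beta (TGF-beta) and the YAP and TEAD transcriptional machinery are textbook inducers of Ccn1, Ccn2, Thbs1 and Postn, and some members feed back on that pathway, thrombospondin 1 as an activator of latent TGF-beta.

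Library totals ran from 28493249 to 85922669 counts. Levels below are CPM, a gene's counts scaled to one common library size for all libraries, with library sizes adjusted by the trimmed mean of M-values (TMM). Tnpo3 lay at 41.6 to 49.4 CPM in the 8 control-virus libraries and at 231 to 723 CPM in the 8 Tnpo3-virus libraries, and Rbm20 overlapped between the genotypes. A single gene, ENSMUSG00000119584, took 19.96% to 22.65% of the counts in 3 WT libraries (WT Ctr 2 and 4 and WT Tnpo3 4) and 0.703% to 5.30% in the others. Xist exceeded the Y-linked genes in 3 WT libraries (WT Ctr 4 and WT Tnpo3 2 and 4) and in 0 P635L libraries, so the libraries with high Xist are not spread over the genotypes. Members were therefore also tested without each of these sets. Leaving out the rich libraries kept only replicates 1 and 3 of WT Ctr. Of the labelled tissue's defining markers, the 6 cardiomyocyte genes summed to 49500 to 81640 CPM in every library. Left ventricle is bulk tissue, and a change in the number of cells that make a transcript cannot be told apart from a change of RNA per cell. The counting of strand is not given in the sources used here: Ccn2, Thbs1 and Tnc overlap a gene on the other strand (Gm15270, Gm29233 and 8030451A03Rik) and Spp1 overlaps Gm42793 on its own strand, so their counts may include reads of those genes.

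Postn is the member with a second readout, exon choice, and the 3 alternative exons that the results below turn on are shown here. Periostin's C-terminal region is encoded by exons that are joined in several combinations. Coordinates are those of the deposited splicing tables (chromosome 3, plus strand; GRCm39 is the build in the submitters' processing notes), and the letters come from the GENCODE M21 transcript with 23 exons (GRCm38), in which exon 17, exon 20 and exon 21 have the deposited lengths of 81, 78 and 84 bases and a constant offset to the deposited coordinates. All 3 lie within the coding sequence, and each length is a multiple of 3, so their inclusion keeps the reading frame. No capitals are used because no motif was searched in them.
Postn exon 17, chr3:54287833-54287913: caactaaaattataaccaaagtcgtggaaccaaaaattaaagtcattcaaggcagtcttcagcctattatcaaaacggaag
Postn exon 20, chr3:54292629-54292706: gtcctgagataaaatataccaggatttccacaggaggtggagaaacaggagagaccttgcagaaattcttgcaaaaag
Postn exon 21, chr3:54293092-54293175: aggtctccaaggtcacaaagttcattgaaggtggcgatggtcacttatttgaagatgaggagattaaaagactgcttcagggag

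Promoters were in the supplied RefSeq table (GRCm38.p6) for 6 of the 10 members. The 250 bases before the start are printed for 3 members whose RNA was higher in P635L Ctr hearts. On both strands, 4 motifs were searched in them: GGAATG (bound by TEAD factors), TGANTCA (AP-1), the CArG box (SRF) and TATAAA, the core of a promoter's A- and T-rich box. Capitals mark the matches, and a match on the other strand appears as CATTCC. For Postn the second listed start is shown, whose window leads into an annotated transcript in the GENCODE M21 set.
Ccn1, chr3:145649986-145650235, minus strand: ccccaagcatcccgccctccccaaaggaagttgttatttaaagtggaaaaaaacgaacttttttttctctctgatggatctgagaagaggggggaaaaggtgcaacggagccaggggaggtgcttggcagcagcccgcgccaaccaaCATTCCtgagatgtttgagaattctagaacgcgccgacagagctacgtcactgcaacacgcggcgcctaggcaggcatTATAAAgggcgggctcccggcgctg
Thbs4, chr13:92794819-92795068, minus strand: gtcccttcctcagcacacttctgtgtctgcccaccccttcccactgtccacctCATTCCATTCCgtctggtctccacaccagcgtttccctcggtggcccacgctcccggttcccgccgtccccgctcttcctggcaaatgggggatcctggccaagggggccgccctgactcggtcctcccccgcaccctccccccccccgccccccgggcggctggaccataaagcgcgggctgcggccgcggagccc
Postn, chr3:54360857-54361106, plus strand: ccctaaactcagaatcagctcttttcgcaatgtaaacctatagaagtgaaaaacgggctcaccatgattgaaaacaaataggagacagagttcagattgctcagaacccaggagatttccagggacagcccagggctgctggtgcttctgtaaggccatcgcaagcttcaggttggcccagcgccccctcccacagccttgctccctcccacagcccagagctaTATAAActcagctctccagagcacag
The Ccn1 window held GGAATG 103 to 98 bases before the start and TATAAA 25 to 20 bases before it. In Thbs4 there were 2 GGAATG matches, from 197 to 192 and from 192 to 187 bases before the start, which share 1 base. The Postn window held TATAAA 26 to 21 bases before its start. Among 32851 promoter windows of the same length, 12.6% held GGAATG, 12.4% TATAAA, 6.75% TGANTCA and 1.47% a CArG box. A match is a string of letters, and binding was not measured.

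In P635L hearts that had received the control virus, 7 of the 10 matricellular genes were higher than in WT hearts with the same virus: Postn, Ccn1, Ccn2, Ccn5, Thbs1, Thbs4 and Comp. Their increases ran from 2.15-fold for Ccn1 to 10.6-fold for Comp, and in each of the 7 every P635L Ctr library lay above every WT Ctr library. Thbs2, Tnc and Spp1 did not pass the test. Of all genes tested, 14.2% were called in this comparison, 7.07% as higher, and 9.71% had non-overlapping groups with the higher values in P635L Ctr. The median log2 fold change of the 10 members was 2.31, against -0.05 over all genes tested. Because the members were chosen with earlier results known, these comparisons with all genes are not a test of the set. A call is an adjusted p-value under 0.05 in edgeR's quasi-likelihood test, with Benjamini-Hochberg adjustment over all genes tested. Log2 fold changes carry their standard error (SE).

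**Figure D1:**
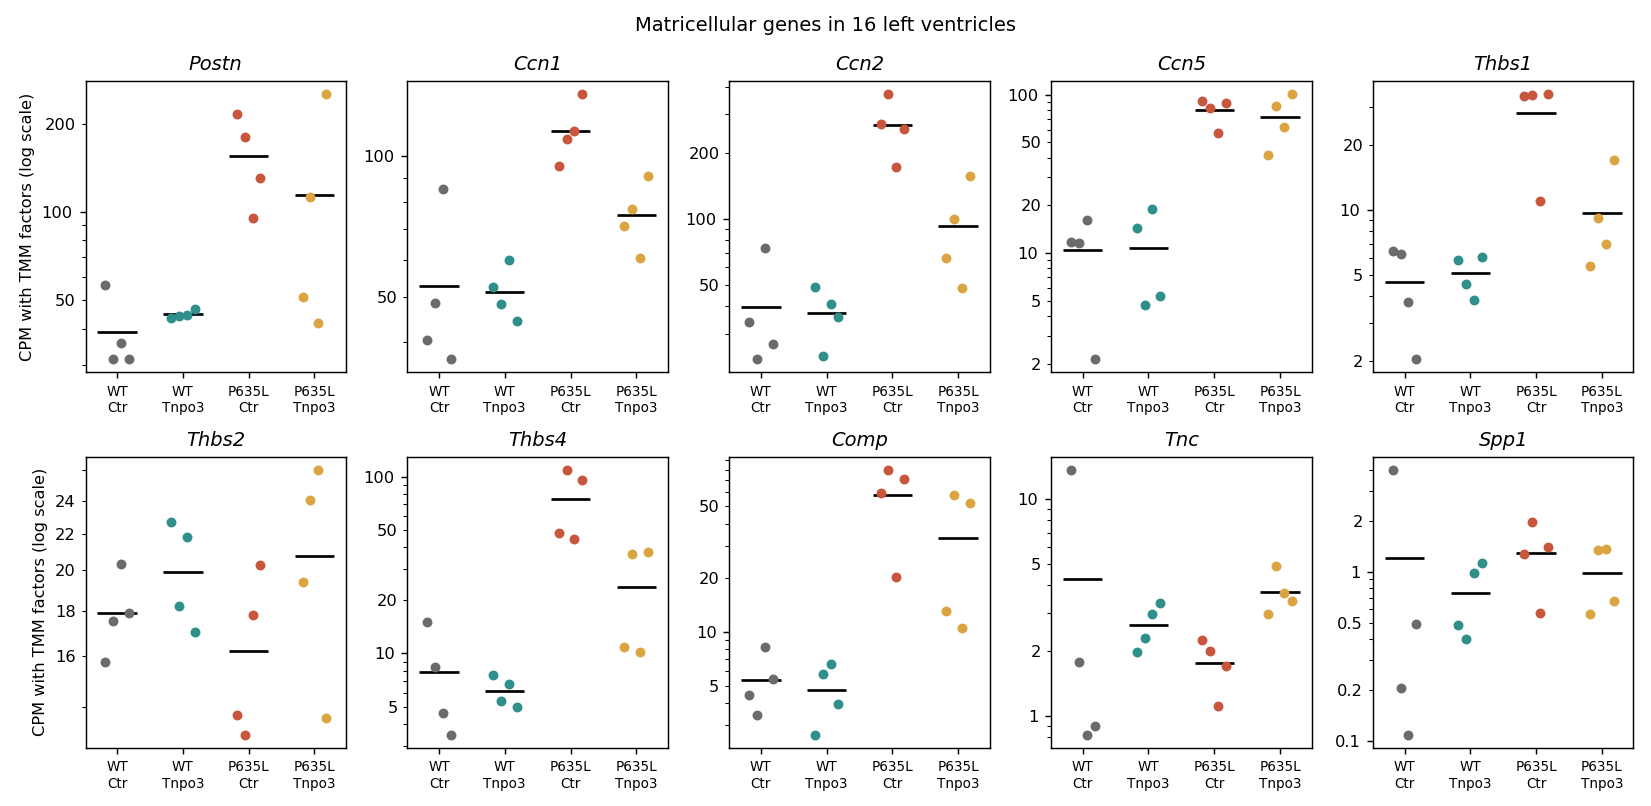
Level of each of the 10 genes in each of the 16 left ventricles, in CPM on a log axis that differs between panels. Each point is 1 mouse and each line the mean of a group of 4. The 7 genes from Postn to Comp other than Thbs2 have all P635L Ctr points above all WT Ctr points.

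Periostin (Postn, ENSMUSG00000027750, chromosome 3, 54268530 to 54298458) binds collagen and integrins and is made by activated fibroblasts. It stood at 56.4, 31.6, 35.8 and 31.5 CPM in WT Ctr replicates 1 to 4 and at 216, 180, 95.2 and 131 CPM in P635L Ctr. The lowest mutant heart was thus above the highest WT heart. The log2 fold change was 2.00 ± 0.47 (SE, adjusted p = 0.0107). Without the 3 libraries rich in ENSMUSG00000119584 it was 1.80 (adjusted p = 0.138), and without the 3 libraries with high Xist it was 1.95 (adjusted p = 0.0582), so the Postn call ended in both. The first of these fits kept only WT Ctr replicates 1 and 3, and replicate 1 was the highest WT Ctr heart for Postn.

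The CCN proteins are modular secreted factors. Ccn1 (ENSMUSG00000028195, chromosome 3, 145352731 to 145355736), an integrin-binding immediate early gene product, was at 40.4, 48.4, 85.2 and 36.8 CPM in WT Ctr and at 95.6, 109, 113 and 136 CPM in P635L Ctr. WT Ctr replicate 3 was the highest of its group and still below all mutant hearts. The log2 fold change was 1.11 ± 0.21 (adjusted p = 0.00181), the smallest of the 7. Ccn2 (connective tissue growth factor, ENSMUSG00000019997, chromosome 10, 24471340 to 24474581) was at 33.9, 23.0, 73.9 and 27.0 CPM in WT Ctr and at 271, 369, 171 and 255 CPM in P635L Ctr. The same WT heart was the highest of its group. Its log2 fold change was 2.76 ± 0.43 (adjusted p = 0.000538). Ccn5 (ENSMUSG00000027656, chromosome 2, 163662781 to 163675066), which lacks the C-terminal domain of the other CCN proteins and is known to oppose Ccn2, was at 11.7, 11.6, 16.2 and 2.14 CPM in WT Ctr and at 91.6, 82.7, 57.5 and 88.9 CPM in P635L Ctr. The log2 fold change of Ccn5 was 2.95 ± 0.56 (adjusted p = 0.00318).

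Among the thrombospondins, 3 of 4 rose. Thbs1 (ENSMUSG00000040152, chromosome 2, 117942357 to 117957614), the activator of latent TGF-beta and a ligand of CD36 and CD47, was at 6.51, 6.31, 3.76 and 2.06 CPM in WT Ctr and at 33.7, 34.1, 11.1 and 34.5 CPM in P635L Ctr. P635L Ctr replicate 3 lay far below the other mutant hearts and still above the WT hearts. The log2 fold change was 2.62 ± 0.44 (adjusted p = 0.000957). Thbs4 (ENSMUSG00000021702, chromosome 13, 92888098 to 92931326), a pentameric thrombospondin of striated muscle and tendon, was at 15.1, 8.37, 4.60 and 3.48 CPM in WT Ctr and at 48.4, 109, 44.8 and 95.4 CPM in P635L Ctr. Its log2 fold change was 3.25 ± 0.57 (adjusted p = 0.00168). Comp (ENSMUSG00000031849, chromosome 8, 70826208 to 70834716), the pentameric cartilage oligomeric matrix protein, was at 4.41, 3.42, 8.19 and 5.48 CPM in WT Ctr and at 59.2, 79.7, 20.1 and 71.3 CPM in P635L Ctr. Its log2 fold change of 3.41 ± 0.62 (adjusted p = 0.00239) was the largest among the members. Its call ended without the 3 libraries rich in ENSMUSG00000119584 (adjusted p = 0.0563), a fit that kept only WT Ctr replicates 1 and 3.

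Thbs2 (ENSMUSG00000023885, chromosome 17, 14885762 to 14914497), a trimeric thrombospondin that limits matrix metalloproteinases and angiogenesis, did not pass the test in this comparison. It was at 15.7, 17.5, 20.4 and 17.9 CPM in WT Ctr and at 13.7, 13.0, 17.8 and 20.3 CPM in P635L Ctr, and the groups overlapped. The log2 fold change was -0.14 with a 95% interval from -0.54 to 0.25 (adjusted p = 0.645).

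Tnc and Spp1 were low, and 1 WT heart set their values. Tenascin-C (Tnc, ENSMUSG00000028364, chromosome 4, 63878022 to 63965252), an adhesion-modulating glycoprotein of injured tissue, was at 13.6, 1.77, 0.822 and 0.898 CPM in WT Ctr and at 2.24, 2.01, 1.12 and 1.70 CPM in P635L Ctr. Osteopontin (Spp1, ENSMUSG00000029304, chromosome 5, 104582984 to 104588916), a phosphoprotein made by activated macrophages among other cells, was at 3.98, 0.206, 0.110 and 0.493 CPM in WT Ctr and at 1.27, 1.95, 0.570 and 1.39 CPM in P635L Ctr. In both genes WT Ctr replicate 1 was higher than every other library of the study. The log2 fold changes were -1.27 ± 0.69 for Tnc (adjusted p = 0.246) and 0.14 ± 0.77 for Spp1 (adjusted p = 0.930).

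That heart also had higher levels of immune-cell marker genes. The summed level of the 6 lymphocyte markers was 61.2 CPM in WT Ctr replicate 1 and 2.57 to 8.91 CPM in the 15 other libraries. Cd8a, Cd3g and Cd3e made up most of it, with WT Ctr maxima of 32.2, 16.2 and 8.07 CPM. The WT Ctr maxima of Cd79a, Cd79b and Ms4a1, 1.75, 2.42 and 0.877 CPM, were each exceeded in another group. The 8 macrophage markers summed to 1113 CPM in WT Ctr replicate 1 and to 304 to 816 CPM in the others. The 5 lipid-associated macrophage markers summed to 218 CPM in that heart against 90.4 to 166 CPM. The part of these cells in its Tnc and Spp1 values was not tested. Without WT Ctr replicate 1, Spp1 was called higher in P635L Ctr (log2 fold change 2.26, adjusted p = 0.0131), which makes 8 of 10 members, and the Tnc difference changed sign to 0.63.

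**Figure D2:**
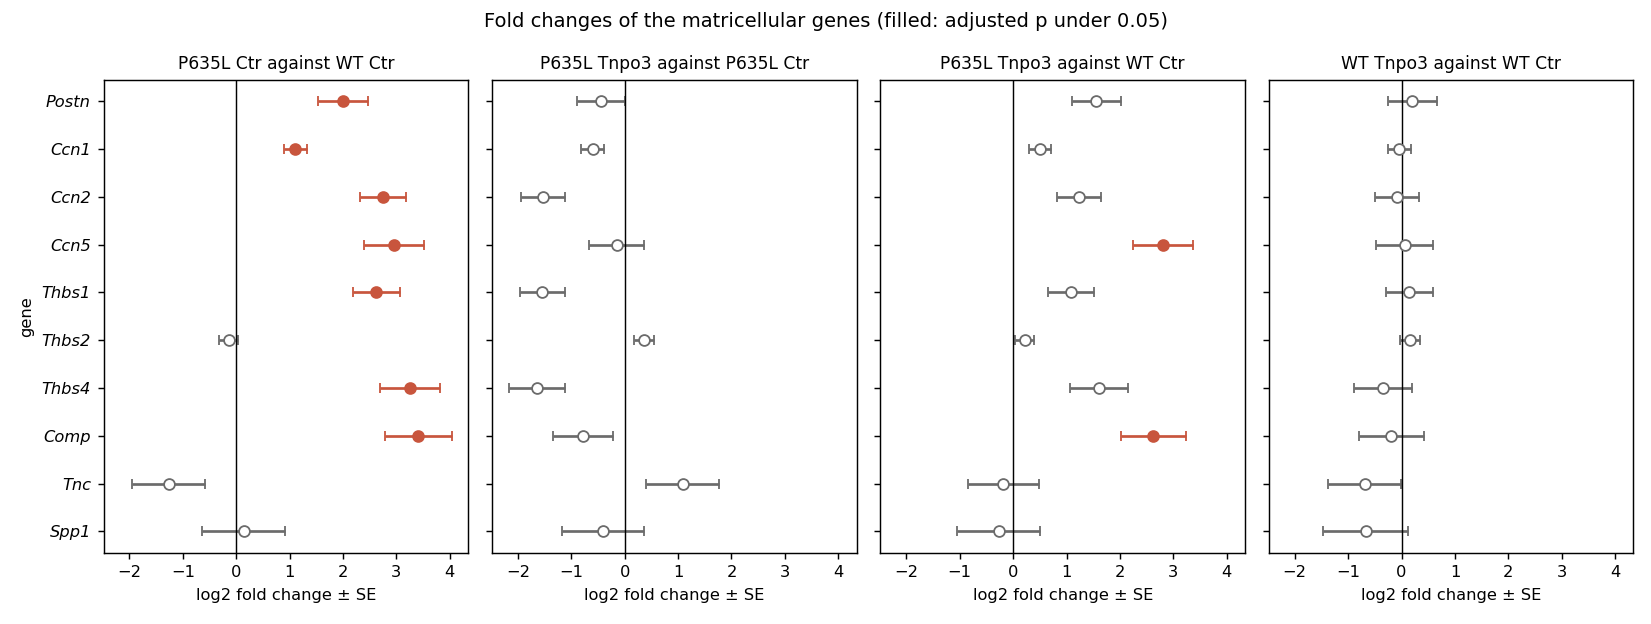
Log2 fold change and SE of each gene in the 4 comparisons between groups, with filled points for an adjusted p under 0.05. Filled points number 7 for P635L Ctr against WT Ctr, 0 for P635L Tnpo3 against P635L Ctr, 2 for P635L Tnpo3 against WT Ctr and 0 for WT Tnpo3 against WT Ctr. The comparisons share libraries and are not independent.

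In WT hearts the Tnpo3 virus made no detectable difference to these genes. With edgeR 0 of 10 were called, 0 had an unadjusted p under 0.05 (3.2% of all genes did), and DESeq2 called 0; 1 gene was called over the whole table, or 0.00536%. Log2 fold changes of WT Tnpo3 against WT Ctr ran from -0.69 for Tnc to 0.20 for Postn. Postn was at 43.5, 44.2, 44.5 and 46.7 CPM in WT Tnpo3, within the range of WT Ctr. Ccn2 was at 48.8, 23.7, 40.9 and 35.8 CPM there. The 95% intervals were wide for several members: that of Ccn2 ran from -0.97 to 0.80 on the log2 scale, that of Thbs1 from -0.80 to 1.09 and that of Comp from -1.51 to 1.13.

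In P635L hearts, those with the Tnpo3 virus had lower mean levels than those with the control virus in 8 of the 10 members, but 0 of 10 passed the edgeR test, where 3.88% of all genes were called. An unadjusted p under 0.05 was reached by 4 members, Ccn1, Ccn2, Thbs1 and Thbs4, all lower with Tnpo3, and by 18.4% of all genes tested. Ccn2 and Thbs1 lay just beyond the threshold, and DESeq2 called 3 members, Ccn2, Thbs1 and Thbs4. The median log2 fold change of the 10 was -0.52, against 0.01 over all genes tested. This comparison shares the P635L Ctr libraries with the one above.

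Ccn2 was at 66.3, 99.5, 48.3 and 157 CPM in P635L Tnpo3 replicates 1 to 4, all below the lowest P635L Ctr heart at 171 CPM. The log2 fold change was -1.53 ± 0.41 (adjusted p = 0.0528; 0.0161 to 0.159 over 16 alternative analyses). Thbs1 was at 5.54, 9.24, 7.03 and 17.1 CPM, and only P635L Ctr replicate 3, at 11.1 CPM, lay within that range. Its log2 fold change was -1.54 ± 0.42 (adjusted p = 0.0529; 0.0135 to 0.164 over the alternatives). Both genes were called without P635L Ctr replicate 3 and, separately, without P635L Tnpo3 replicate 4. Upper-quartile scaling and leaving out the libraries with high Xist each called Thbs1 alone.

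Thbs4 was at 10.8, 36.7, 10.1 and 37.3 CPM in P635L Tnpo3, below all P635L Ctr hearts, with a log2 fold change of -1.65 ± 0.52 (adjusted p = 0.105). Ccn1 was at 70.8, 77.3, 60.7 and 90.7 CPM, again below all P635L Ctr hearts, with -0.60 ± 0.21 (adjusted p = 0.129). Non-overlapping groups with lower values in P635L Tnpo3 were thus seen in 3 members, Ccn1, Ccn2 and Thbs4, and in 11% of all genes tested. A fit to these 2 groups alone called 2 members, Ccn1 and Tnc, among 2846 genes called over the whole table, against 724 in the main fit.

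The other raised members showed no such separation. Postn was at 51.2, 112, 41.7 and 253 CPM in P635L Tnpo3, so that replicates 1 and 3 fell in the WT range and replicate 4 exceeded every P635L Ctr heart. The difference was -0.44 ± 0.45 (adjusted p = 0.674). Comp was at 13.1, 57.9, 10.5 and 52.3 CPM (-0.78 ± 0.56, adjusted p = 0.507). Ccn5 was at 41.7, 84.7, 62.2 and 101 CPM, a span that reached below and above that of P635L Ctr, with a log2 fold change of -0.15 and a 95% interval from -1.27 to 0.97 (adjusted p = 0.921).

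Of the 3 members not raised in P635L Ctr, Tnc and Thbs2 had positive log2 fold changes and Spp1 a negative one, and 0 passed the test. Tnc was at 2.95, 4.93, 3.70 and 3.41 CPM in P635L Tnpo3, above all 4 P635L Ctr hearts, as were the values of 9.36% of all genes tested. Its log2 fold change was 1.08 ± 0.68 (adjusted p = 0.428). The summed level of the 8 macrophage markers was also higher without overlap in these hearts, at 481.6 to 816 CPM against 303.5 to 448.2 CPM in P635L Ctr, although 0 of the 8 were called (7 of 8 with positive log2 fold changes, median 0.64). The part of such cells in the Tnc values was not tested. Thbs2 was at 19.4, 24.0, 26.0 and 13.6 CPM (0.36 ± 0.18, adjusted p = 0.302) and Spp1 at 0.561, 1.34, 1.36 and 0.674 CPM (-0.40 ± 0.76, adjusted p = 0.843).

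The effect of the virus was then compared between the genotypes by an interaction term. It called 0 of 10 members with edgeR and 0 with DESeq2, against 0.504% of all genes with edgeR. An unadjusted p under 0.05 was reached by 2 members, Thbs1 (-1.69 ± 0.60, adjusted p = 0.262) and Ccn2 (-1.44 ± 0.57, adjusted p = 0.325), and by 12.4% of all genes tested. For these members a difference between the genotypes in the response to the virus was therefore not shown.

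Set against WT Ctr hearts, P635L hearts with the Tnpo3 virus had 2 called members, Ccn5 and Comp, with 3.07% of all genes called. Ccn5 was 6.95-fold higher (log2 2.80 ± 0.56, adjusted p = 0.0157) and Comp 6.17-fold higher (log2 2.63 ± 0.61, adjusted p = 0.0347). In both, all treated mutant hearts lay above all WT Ctr hearts, as in 4.75% of all genes tested. The Comp call was lost in 10 of 16 alternative analyses and the Ccn5 call in 3. Without the libraries rich in ENSMUSG00000119584, in a fit of only these 2 groups, or without P635L Tnpo3 replicate 4, 0 members were called. The other 5 raised genes had log2 fold changes of 1.56 for Postn (adjusted p = 0.0908), 1.60 for Thbs4 (adjusted p = 0.135), 1.23 for Ccn2 (adjusted p = 0.127), 1.08 for Thbs1 (adjusted p = 0.197) and 0.51 for Ccn1 (adjusted p = 0.212). Without WT Ctr replicate 3, the highest WT heart for Ccn1 and Ccn2, 4 members were called, and DESeq2 called 4 as well. Without WT Ctr replicate 1, Tnc differed by 1.71 (adjusted p = 0.00638).

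Exact two-sided permutation tests over 4 against 4 libraries gave their smallest possible value, p = 0.0286, for each of the 13 member comparisons without overlap. Adjusted over all 40 such tests, that value became 0.0879. The authors' deposited DESeq2 tables called 7 members between P635L Ctr and WT Ctr, 2 between P635L Tnpo3 and WT Ctr and 0 between the WT groups. In each table they were also called here.

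**Figure D3:**
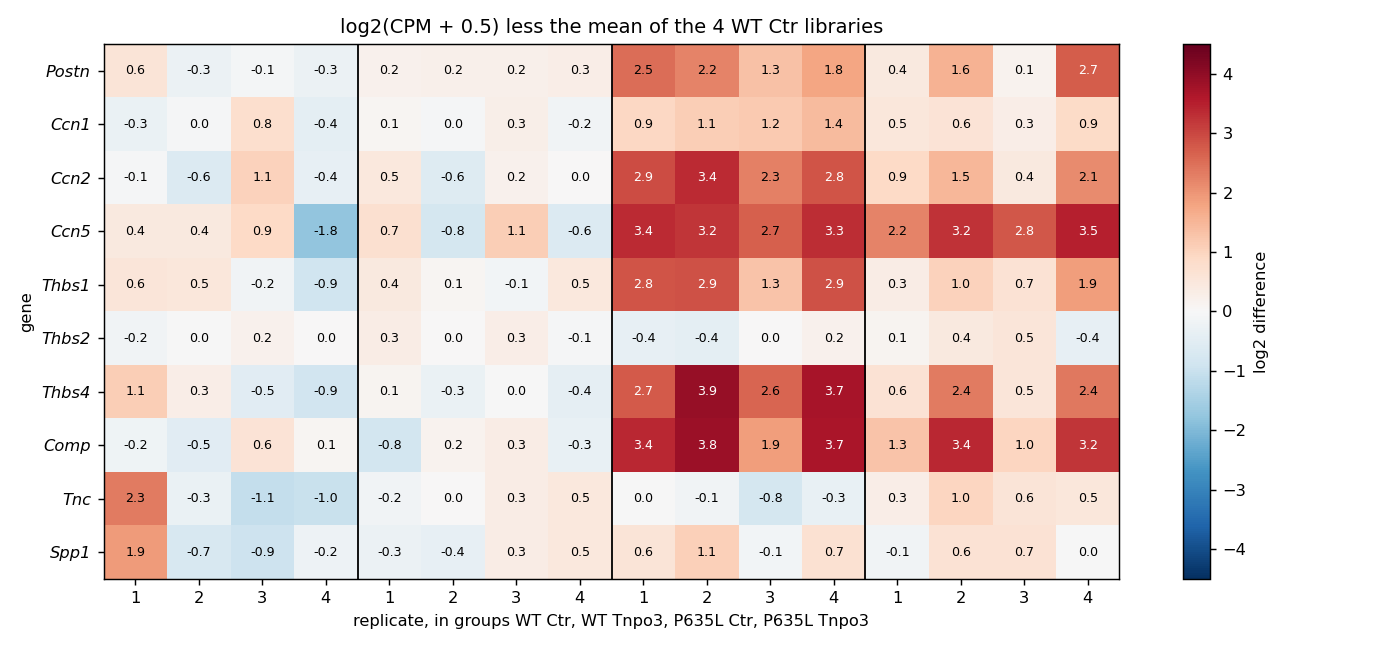
Heat map of log2(CPM + 0.5) in each library less the mean of the WT Ctr libraries, by gene and replicate. In the P635L Tnpo3 block replicates 2 and 4 are darker than 1 and 3 in the 7 genes raised in P635L Ctr hearts, and WT Ctr replicate 1 stands out in Tnc and Spp1.

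The 4 treated mutant hearts fell into a shared order across genes. In all 7 raised members, P635L Tnpo3 replicates 2 and 4 were the upper pair and replicates 1 and 3 the lower pair. Replicate 4 was above the WT Ctr range in 7 of 7 and below the P635L Ctr range in 3 of 7. Replicate 1 was above the WT Ctr range in 2 of 7 and below the P635L Ctr range in 7 of 7. Tnpo3 itself was at 359, 723, 543 and 234 CPM in replicates 1 to 4, so the upper pair held both the highest and the lowest Tnpo3 level. In the P635L Ctr group, replicate 3 was the lowest heart in 6 of the 7, with Ccn1 as the exception.

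The raised members also varied together within groups. Over the 16 libraries, which share depth and TMM scaling, Pearson's r of log2 CPM among the 21 pairs of the 7 genes ran from 0.74 to 0.93. After the group means were removed all 21 remained positive, from 0.14 for Ccn1 and Thbs1 to 0.74 for Thbs1 and Thbs4, with a median of 0.55. Of the 24 pairs with Thbs2, Tnc or Spp1, 13 were positive within groups. Tnc and Spp1 went together (0.91 within groups, and 0.63 over the 15 libraries without WT Ctr replicate 1), and Thbs2 ran opposite to Postn (-0.70 within groups). These values are descriptions of 16 libraries.

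Genes with the most similar profile to each member were sought among 12963 genes over the same libraries. For Postn they were Pamr1 (r = 0.96), Mfap5 and Col8a1. For Ccn1 they were Aptx (r = 0.96), Pcsk5 and Ppp1r15a, and for Ccn2 Fmod (r = 0.97), Mfap4 and Spry1. Ccn5 was closest to Lbp (r = 0.94), Meis3 and Npdc1. Thbs1 was closest to Serpinf1 (r = 0.97), Bgn and Col8a1, and Thbs4 to Cilp (r = 0.99), with Serpinf1 also among its nearest. Comp was closest to Nox4 (r = 0.97), Ltbp3 and 2810468N07Rik. Thbs2 had no profile above 0.79, that of Pim3, followed by Gm29170 and Trmt9b. Tnc was closest to Ncf1 (r = 0.93), Clec12a and Ms4a7, which are genes of myeloid cells, and Spp1 to Lgals3 (r = 0.91), Tnfrsf1b and Icam1. Tnc and Spp1 were both highest in WT Ctr replicate 1, and their similar genes were not sought without that library.

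Per length, the order of the members changed with genotype. In RPKM, which is CPM divided by the gene length in kilobases, Ccn1 led in WT Ctr at 26.1 ± 11.0 (SD, n = 4), followed by Ccn2 at 13.8 ± 8.17, Ccn5 at 5.41 ± 3.07 and Postn at 4.46 ± 1.37, and each of these overlapped its neighbour. Thbs2, Thbs4 and Comp followed between 2.55 and 1.81 RPKM and also overlapped one another. Thbs1, Spp1 and Tnc, at 0.767, 0.726 and 0.551 RPKM, formed the lowest, overlapping group. In P635L Ctr, Ccn2 led at 93.2 ± 28.4, then Ccn1 at 56.2 ± 8.30 and Ccn5 at 41.7 ± 8.08, then Thbs4, Comp and Postn at 22.7, 19.4 and 17.9 RPKM; neighbours in this order overlapped. Thbs1 at 4.67 ± 1.89 stood below Postn without overlap, and Thbs2, Spp1 and Tnc were last at 2.31, 0.786 and 0.227 RPKM. In P635L Tnpo3, Ccn5, Ccn1 and Ccn2 were level at 37.6, 37.1 and 32.4 RPKM with overlapping values. WT Tnpo3 had the order of WT Ctr.

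Postn transcripts in P635L Ctr hearts more often carried their alternative C-terminal exons. Of the authors' rMATS events, which compare junction reads that include or skip an exon, 8 in member genes had enough reads (a mean of 10 per library), and 3 were called at a false discovery rate (FDR) under 0.05 and an inclusion difference of at least 0.1. All 3 were in Postn, while 2.52% of all events with enough reads were called. Of the 5 others, 2 were in Ccn5, 2 in Comp and 1 in Thbs2. The order of libraries within a group is not stated in those tables, so libraries are given in the order listed.

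Exon 17, whose sequence opens the set printed above, had an inclusion level of 0.087, 0.101, 0.171 and 0.227 in WT Ctr and of 0.446, 0.454, 0.307 and 0.518 in P635L Ctr. All mutant values lay above all WT values, a difference of 0.285 between the means (authors' FDR = 2.36e-12; exact permutation p = 0.0286). In P635L Tnpo3 it was 0.262, 0.233, 0.12 and 0.418, a mean of 0.258 ± 0.123 (SD, n = 4), which overlapped both control-virus groups. The difference from WT Ctr was 0.112 (FDR = 0.0626), and that from P635L Ctr was -0.173 (exact permutation p = 0.0571). WT Tnpo3, at a mean of 0.163, differed from WT Ctr by 0.016 (FDR = 1).

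Exon 20 was included at 0.837, 0.784, 0.844 and 0.9 in WT Ctr and at 0.981, 0.972, 0.978 and 0.979 in P635L Ctr, where its skipping had almost vanished. The difference was 0.136 (FDR listed as 0; exact permutation p = 0.0286). It was 0.983, 0.944, 0.945 and 0.978 in P635L Tnpo3, above all WT Ctr values (difference 0.121, FDR listed as 0). The 2 mutant groups overlapped for this exon (difference -0.015, exact permutation p = 0.371). Exon 21 was read between exon 20 and exon 22, and rose from 0.058, 0.112, 0.155 and 0.098 in WT Ctr to 0.298, 0.37, 0.179 and 0.359 in P635L Ctr (difference 0.196, FDR = 2.74e-12). In P635L Tnpo3 it was 0.132, 0.205, 0.135 and 0.287, below the size needed for a call (difference from WT Ctr 0.084, FDR = 0.000725). Read between exon 19 and exon 22, exon 21 had a mean of 0.266 in WT Ctr and 0.755 in P635L Tnpo3 (FDR = 3.26e-10). The skipping reads of that event, 31, 20, 26 and 15 in WT Ctr, were those of the exon 20 event. The same held in P635L Tnpo3, so this value cannot be read apart from the skipping of exon 20.

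**Figure D4:**
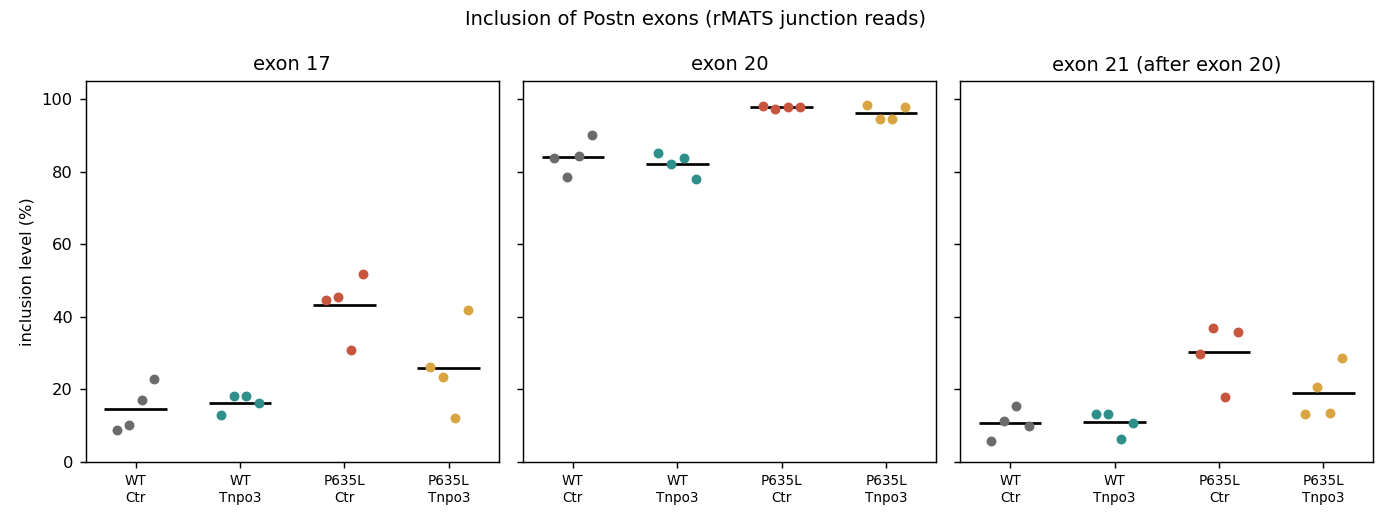
Inclusion level of 3 Postn exons in percent, each point 1 library and each line the mean of a group of 4. All P635L Ctr points lie above all WT Ctr points for each exon, and for exons 17 and 21 the P635L Tnpo3 points overlap both.

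In P635L Tnpo3 against WT Ctr, exon 20 and the second reading of exon 21, which have the same skipping reads, were called. These were 2 of 11 member events with enough reads, with 2.12% of all events called. Of 7 in WT Tnpo3 against WT Ctr, 0 were called by the FDR of rMATS (0.941% of all events), and the 3 exons of Postn had unadjusted exact permutation p-values of 0.543 to 0.943. These events share junction reads and are not independent counts of change. The reads behind them rose with the gene: exon 17 had a mean of 95.5 junction reads per library in WT Ctr and 783 in P635L Ctr. Adjusted over the 13 exact tests of these events, the smallest exact p became 0.0743.

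The wider family was given by a list of 20 other matricellular genes. Of these, 16 were tested, 6 were higher in P635L Ctr and 0 lower, and their median log2 fold change was 0.28. For this and the following lists, 7.07% of all genes tested were called higher and 7.14% lower in P635L Ctr against WT Ctr. Ccn4, a further CCN protein, rose from 1.20 ± 0.281 to 5.48 ± 1.05 CPM (SD, n = 4; log2 2.20, adjusted p = 5.06e-06). Mgp, an inhibitor of calcification, rose from 178 ± 12.4 to 438 ± 114 CPM (log2 1.30, adjusted p = 3.17e-05), and Thbs3 by 0.90 (adjusted p = 0.00565). Against WT Ctr, these 3 were also called in P635L Tnpo3, with log2 fold changes of 1.75, 0.72 and 0.86. In P635L Tnpo3 against P635L Ctr 0 of the 16 were called, with 3.88% of all genes called.

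Receptors of matricellular proteins changed in both directions. Of 15 tested, 5 rose and 2 fell in P635L Ctr, with a median of -0.07, while 14.2% of all genes tested were called. The largest rises were those of integrin Itgb8 (1.15, adjusted p = 0.0183), integrin Itga9, a receptor of tenascin-C and osteopontin (0.88, adjusted p = 0.000559), and the endocytic receptor Lrp1 (0.80, adjusted p = 0.00123). Those that fell were Sdc4, syndecan 4 (-0.68, adjusted p = 0.0105), and Cd47 (-0.35, adjusted p = 0.0375). Of the 15, Sdc4 was the single one called in P635L Tnpo3 against P635L Ctr, with 3.88% of all genes called. It was higher there (0.63, adjusted p = 0.0437), and P635L Tnpo3 differed from WT Ctr by -0.05 for this gene (adjusted p = 0.9).

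In P635L Ctr against WT Ctr, 14.2% of all genes tested were called, 7.07% as higher. Of 17 genes of TGF-beta, YAP and SRF signalling, 3 rose in P635L Ctr and 0 fell, with a median of -0.02. They were the ligands Tgfb2 (1.60, adjusted p = 2.87e-06) and Tgfb3 (0.87, adjusted p = 0.00225) and the receptor Tgfbr1 (0.57, adjusted p = 0.00817). Tgfb2 was at 10.8 ± 2.25 CPM in WT Ctr, 32.7 ± 3.17 in P635L Ctr and 15.1 ± 3.07 in P635L Tnpo3 (SD, n = 4). It was lower with the Tnpo3 virus in mutant hearts (log2 -1.12, adjusted p = 0.000664). Its interaction term was called (-1.28, adjusted p = 0.0117), unlike that of any member. A negative interaction term was also called for 2 of the 8 fibroblast markers described below, with 0.504% of all genes called.

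Other target genes of TGF-beta and YAP rose in 4 of 10 cases and fell in 0, with a median of 0.58. They included Ankrd1 (2.35, adjusted p = 0.000145), a stretch-responsive cardiomyocyte gene, and Tgif1 (1.03, adjusted p = 0.00565). In P635L Tnpo3 against P635L Ctr 0 of these 10 were called, all with negative log2 fold changes. Immediate early genes rose in 7 of 14 cases, with a median of 0.90, led by Egr2 (3.25, adjusted p = 0.00287), Egr3 (3.00, adjusted p = 0.00427) and Egr1 (2.32, adjusted p = 0.0101). With the Tnpo3 virus, 3 of the 14 were lower than in P635L Ctr: Egr2 (-2.54, adjusted p = 0.0286), Atf3 (-1.30, adjusted p = 0.0460) and Fosl2 (-0.87, adjusted p = 0.0232). Myofibroblast genes rose in 5 of 11 cases, with a median of 0.72, led by Cilp (3.21, adjusted p = 0.000883), Col8a1 (1.92, adjusted p = 0.000205) and Meox1 (1.59, adjusted p = 0.00187). Of the 11 log2 fold changes, 10 were positive and 1 negative. The rise did not extend to Acta2, whose P635L Ctr mean of 86.3 CPM was below the WT Ctr mean of 104 CPM. Fap (means of 6.79 against 6.55), Fn1 (61.6 against 61.2) and Cthrc1 (0.313 against 0.247) overlapped between the same groups. Of the 11, Col1a1 was called lower in P635L Tnpo3 than in P635L Ctr (-0.86, adjusted p = 0.0496). Lower calls in that comparison made up 2.25% of all genes tested.

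Fibroblast markers rose with 7 of the 10 matricellular genes in P635L Ctr hearts. In P635L Ctr against WT Ctr 7 of 8 rose, with a median log2 fold change of 0.84, led by Pdgfrl (1.38), Pdgfra (1.06) and Col1a2 (1.05). In P635L Tnpo3 against P635L Ctr 6 of 8 fell, where 2.25% of all genes tested were called lower, with a median of -0.78, led by Lum (-0.96), Pdgfrl (-0.95) and Pdgfra (-0.92). Their summed level was 2299 to 2887 CPM in WT Ctr, 2353 to 2918 in WT Tnpo3, 3590 to 5050 in P635L Ctr and 2622 to 3231 in P635L Tnpo3, and in P635L Tnpo3 replicates 2 and 4, the pair with the higher matricellular genes, had 3231 and 3198 CPM. Among the 7 raised members, r with the summed markers within groups was 0.05 for Ccn1, 0.14 for Ccn2, 0.21 for Ccn5 and 0.54 to 0.76 for the others. In P635L Tnpo3 against P635L Ctr 0 of the 10 members were called. The median log2 fold change in P635L Ctr against WT Ctr was 2.31 over the 10 members and 0.84 over the 8 markers. The part of fibroblast number in the members' values was not tested.

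Tendon and valve cell markers rose as well, in 3 of 5 tested, with a median of 1.73. Their sum was 5.10 to 11.2 CPM in WT Ctr, 31.4 to 64.4 in P635L Ctr and 12.0 to 28.6 in P635L Tnpo3. Tnmd, the defining tenocyte gene, was at 0 to 0.0274 CPM in WT Ctr and at 0.323 to 1.98 CPM in P635L Ctr. Fmod was at 0.165 to 0.959 and 9.88 to 35.5 CPM, and Scx at 3.62 to 10.2 and 20.3 to 26.2 CPM. The rest of the list was low and overlapped between these groups. Mean levels in WT Ctr and P635L Ctr were 0.458 and 0.309 CPM for Chad, 0.199 and 0.216 for Cldn11, and 0.0942 and 0.127 for Mkx. Thbs4 and Comp are also abundant in tendon, and the part of such cells in their values was not tested. Of all genes tested, 7.14% were called lower in P635L Ctr. Called lower were 3 of 6 cardiomyocyte markers, led by Tnni3 (-0.81, adjusted p = 0.000234), and the single genes Cd68 of 8 macrophage markers, Abcc9 of 6 mural cell markers and Wt1 of 3 epicardial markers. Of the 6 lymphocyte, 5 lipid-associated macrophage, 6 endothelial and 6 platelet markers 0 were called in this comparison. In P635L Tnpo3 against P635L Ctr, Pf4 of the platelet list (0.74, adjusted p = 0.0273) and Msln of the epicardial list (0.253 to 0.879 CPM against 0 to 0.0691 CPM) were called higher.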

How the data were processed

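Polyadenylated RNA from the left ventricle had been sequenced from stranded libraries, per the labels' protocols. The authors deposited a table of raw counts per gene. Per the submitters' processing notes, STAR 2.7.9a, featureCounts 2.0.6, DESeq2 and GRCm39 were used. The authors' deposited DESeq2 tables hold log2 fold changes and adjusted p-values, each taken as WT Ctr over the other group, so their signs were turned here. The authors' deposited rMATS tables hold junction read counts, inclusion levels as a fraction and an FDR (a p-value adjusted for multiple tests).

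edgeR 4.0.16 under R 4.3.3 was applied to the counts (robust quasi-likelihood F test, TMM, filterByExpr; a mean per group over all 16 libraries, 12 residual degrees of freedom, two-sided). Each standard error was taken as the absolute log2 fold change over the square root of F, and 95% intervals are approximate. RPKM used the gene lengths in the count table. CPM received an offset of 0.5 before logs in the heat map, the correlations, the search for similar genes and the exact permutation tests of members. DESeq2 1.42.0 was an alternative. The test was checked on simulated counts. Exact permutation tests used all 70 assignments of 4 of 8 libraries; those of exon inclusion, and the correlation without WT Ctr replicate 1, were added after the values had been seen.

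The members and lists were chosen with earlier results of these data known. All members are named; of each list, up to 3 called genes with the largest absolute log2 fold change per comparison; of similar genes, the 3 with the highest r among genes whose mean log2 CPM reached 1; and every called member splice event. A few genes that this rule selects are not reported here. No authors' table was used for P635L Tnpo3 against P635L Ctr.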

Additional observations from a re-analysis of the deposited data

Results flagged for a closer look

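In 40 sets of 4 libraries (10 genes in 4 groups), a library was counted as standing apart when its gap to the nearest other, over the range of the group, exceeded Dixon's 95% critical value. Chance alone gives about 1 such set in 20. There were 3. Thbs1 was at 11.1 CPM in P635L Ctr replicate 3, with the next heart at 33.7 CPM. Tnc was at 13.6 CPM in WT Ctr replicate 1, with the next at 1.77 CPM. Spp1 was at 3.98 CPM in the same heart, with the next at 0.493 CPM.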

How the results depend on the processing

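The 4 mice in each group limit the precision, and Tnc and Spp1, the members with the lowest levels per length, also depend on WT Ctr replicate 1. In P635L Ctr against WT Ctr, 7 members were called under upper-quartile scaling, DESeq2 size factors, no filter, the DESeq2 test and a fit of 2 groups, 6 without the libraries with high Xist, 5 without those rich in ENSMUSG00000119584, and 7 to 8 when 1 library was left out. The cause of the changes below was not tested.

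For P635L Tnpo3 against P635L Ctr (0 members and 724 genes called), upper-quartile scaling called 1 member, DESeq2 3 members and 1363 genes, leaving out the high-Xist libraries 1 and 1282, a fit of 2 groups 2 and 2846, and leaving out the rich libraries 1482 genes. Leaving out 1 library gave 0 to 2 members and 282 to 591 genes. For P635L Tnpo3 against WT Ctr (2 members and 573 genes), DESeq2 called 4 members and 1113 genes. No filter called 1 member, leaving out the high-Xist libraries 1, leaving out the rich libraries 0 with 319 genes, and a fit of 2 groups 0. Leaving out 1 library gave 0 to 4 members and 282 to 687 genes. For WT Tnpo3 against WT Ctr (1 gene), DESeq2 called 3 genes, leaving out either set of 3 libraries 0, and leaving out 1 library 1 to 3. For the interaction (94 genes), no filter called 146, DESeq2 412, leaving out the rich libraries 322, leaving out the high-Xist libraries 54, and leaving out 1 library 52 to 221. A minimum inclusion difference of 0.2 left 1 member splice event in each mutant comparison.

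Signs changed only for members without a call in the main analysis. When 1 library was left out, log2 fold changes in P635L Ctr against WT Ctr ran from -1.62 to 0.63 for Tnc and from -0.25 to 2.26 for Spp1. That of Ccn5 in P635L Tnpo3 against P635L Ctr ran from -0.35 to 0.0398. In P635L Tnpo3 against WT Ctr they ran from -0.53 to 1.71 for Tnc and from -0.66 to 1.85 for Spp1. In WT Tnpo3 against WT Ctr they ran from -0.18 to 0.30 for Ccn1, -0.24 to 0.42 for Ccn2, -0.36 to 0.36 for Ccn5, -0.11 to 0.36 for Thbs1, -0.60 to 0.19 for Thbs4, -0.39 to 0.0952 for Comp, -1.04 to 1.21 for Tnc and -1.06 to 1.45 for Spp1. For the interaction they ran from -0.52 to 0.21 for Ccn5, -0.12 to 2.12 for Tnc and -1.85 to 0.66 for Spp1. Without the rich libraries, Spp1 in P635L Ctr against WT Ctr was -0.57, and in WT Tnpo3 against WT Ctr Postn was -0.0265, Ccn5 -0.11 and Thbs1 -0.0532. Without the high-Xist libraries, Spp1 in P635L Ctr against WT Ctr was -0.0851, and in WT Tnpo3 against WT Ctr Ccn2 was 0.0597 and Thbs1 -0.14.

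Mice with the same replicate number were treated as unpaired. Residuals of same-numbered libraries correlated at a median of -0.05 over 24 pairs (range -0.27 to 0.60). Those of different-numbered libraries correlated at a median of 0.01 over 72 pairs (range -0.39 to 0.34). These values cannot exclude that some mice were paired. With a replicate block 1 member was called in P635L Tnpo3 against WT Ctr, where Tnc was 0.42 and Spp1 0.28 on the log2 scale, and the Spp1 interaction was -0.14. The counts of called members in the other comparisons did not change under the block.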
